A study of Rattus norvegicus with 9 samples.

Results

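Monoamines are a small group of transmitters that includes dopamine, noradrenaline and serotonin. They are made by hydroxylating tyrosine or tryptophan and then removing a carboxyl group, are loaded into synaptic vesicles by a transporter, and are broken down after re-uptake by the monoamine oxidases of the outer mitochondrial membrane. In the mature retina, dopamine is made by a small population of amacrine cells, and in the brain monoamine oxidase B is found in astrocytes and in serotonergic neurons. The genes described here are Th (tyrosine hydroxylase), Tph1 (a tryptophan hydroxylase), Gch1 (GTP cyclohydrolase 1, which starts the synthesis of tetrahydrobiopterin, the cofactor of both hydroxylases), Ddc (aromatic L-amino acid decarboxylase), Slc18a2 (the vesicular monoamine transporter VMAT2) and Maoa and Maob (the oxidases). These 7 genes were taken as a named list, and every probe set that the platform annotation gives to one of them alone was read. In all, 6 of the 7 genes had a probe set, with 10 probe sets among 31042 on the array, and these 6 belong to 14217 genes with a probe set. No probe set carried the symbol Tph1 in the annotation used, so Tph1 was not analysed here.

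The study asked how far retinal progenitor cells (RPCs) made from rat embryonic stem cells (rESCs) resemble those of the newborn rat eye. RNA of 3 biological replicates of each of 3 populations was hybridised to the Affymetrix Rat Genome 230 2.0 array. Both rESC-RPC populations came from 1 rESC line of DA rats, DA8-16, which was aggregated in suspension in serum-free medium with Matrigel and the Wnt inhibitor IWR-1e, later given serum, and harvested on day 16. For rESC-RPC2 the aggregates stayed in suspension until day 14 and were adherent for the rest of the culture, in the same serum-containing medium. For rESC-RPC1 the aggregates were dissociated and plated on day 10, and the medium was changed on day 14 to an N2-supplemented one with serum. P-RPC, the control population, was retinal tissue of Sprague-Dawley (SD) rats at postnatal day 1, dissociated with papain and kept on ice without culture. No sorting step was described. No transgene or induced mutation was named for any group. Strain and culture both separate the rESC-RPCs from P-RPC, and medium and days of adherence both separate rESC-RPC2 from rESC-RPC1, so these factors cannot be told apart. The replicates were labelled biological and came from independent experiments. The adjusted p-values below set differences between groups against the spread within groups over these 9 arrays.

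A value is the MAS 5.0 signal of a probe set, scaled by the authors so that every array had a trimmed mean of 500.2. The median signal of an array lay between 113 and 128. The median of all values, 122.57, served as detection threshold, and a gene entered the fit if 3 or more of the 9 arrays reached it, which left 9956 genes. A gene was called when its adjusted p was under 0.05 (limma, Benjamini-Hochberg over all 9956 genes) and its groups differed by at least 2-fold, a log2 fold change of 1. The listed genes were picked from the signals and fold changes of these same arrays, so their own levels and fold changes are given as a description, without p-values. Where no array of a group reached the threshold, a minimum for the fold, set against the threshold itself, is printed where it exceeds 1. A fitted log2 fold change printed for such a gene depends on signals under the threshold. Signals of different probe sets are not comparable with each other.

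The cells were checked against their names. Of 6 retinal progenitor markers with a probe set, 3 reached the threshold on all rESC-RPC2 arrays, 4 on all rESC-RPC1 arrays and 5 on all P-RPC arrays. Pax6, an eye field transcription factor, averaged 84.7 ± 24.0 in rESC-RPC2 and 118 ± 74.3 in rESC-RPC1, against 13972 ± 423 in P-RPC (SD, n = 3 each), and it reached the threshold on 1 of the 6 rESC-RPC arrays. The paper reported Pax6 in both rESC-RPCs by RT-qPCR, at lower levels than in P-RPC, and by immunofluorescence. In rESC-RPC2, rESC-RPC1 and P-RPC, Rax averaged 141, 249 and 4623, Six6 1429, 495 and 4944, and Lhx2 3387, 5752 and 8683. Sox2 went the other way, at 6468, 9368 and 4936, and Six3 was under the threshold on all arrays. The photoreceptor markers with a probe set were under the threshold on all 6 rESC-RPC arrays. One P-RPC array, replicate 1, stood apart by lens genes, with a summed signal of 89994 over 5 crystallin and lens membrane genes against 1528 and 4807 on the other two. Of the monoamine and other pathway genes named below, leaving out that array ended only the calls of Drd1, which then no longer entered the fit, and added 1 call, that of Adra2a for rESC-RPC2 against P-RPC.

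Maob showed the widest range among these genes and was high in 1 population alone. Its signal was 1208 or more on every rESC-RPC1 array and near the detection threshold in rESC-RPC2 and P-RPC. Maoa and Gch1 were also highest in rESC-RPC1, with far smaller differences. Th and Ddc had their highest signals in rESC-RPC2 and their lowest in P-RPC, and Slc18a2 had its lowest signals in rESC-RPC2 on the brightest of its 3 probe sets. In these bulk samples, fewer cells of a type and less RNA per cell cannot be told apart.

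**Figure D1:**
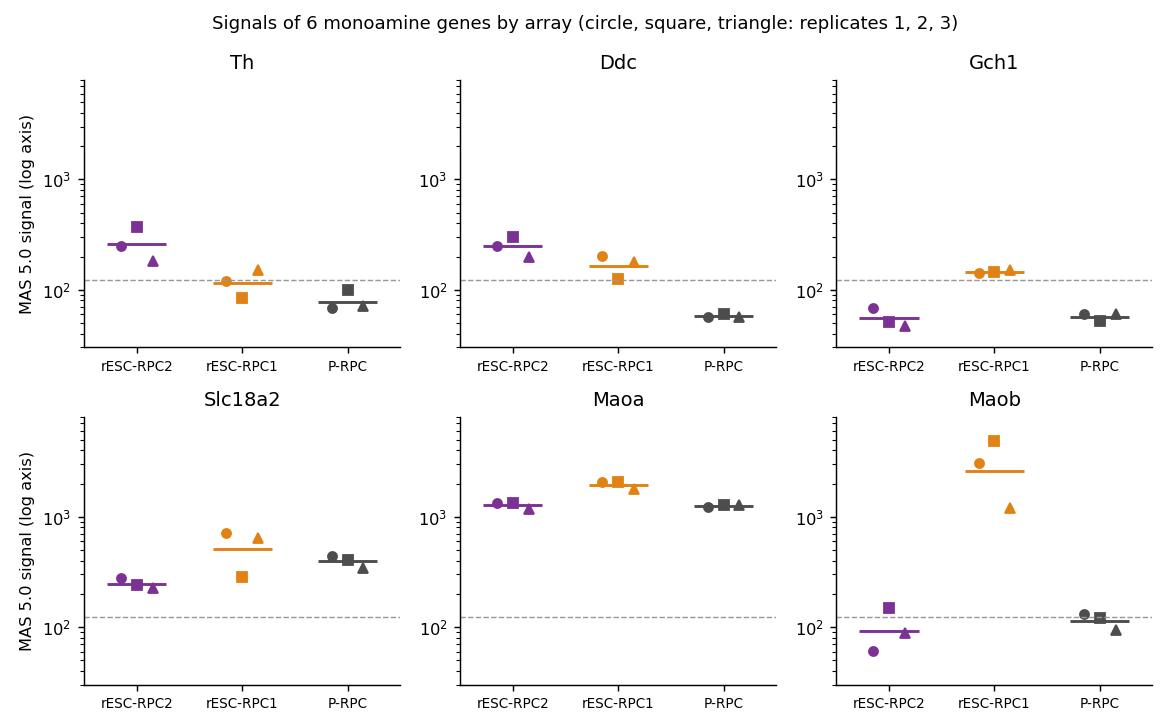
MAS 5.0 signal (log axis) of the probe set used for each of the 6 genes on each array of rESC-RPC2, rESC-RPC1 and P-RPC. Each marker is 1 array, the short line is the mean of the 3 log2 signals and the dashed line is the detection threshold of 122.57; Maob lies between 1208 and 4907 in rESC-RPC1 and between 60.4 and 149.5 on the other 6 arrays.

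Between rESC-RPC2 and rESC-RPC1, 4 of the 6 genes were called, Th higher and Maob, Gch1 and Slc18a2 lower. Of all genes tested, 14.3% were called in this comparison, 5.02% higher and 9.25% lower. Between rESC-RPC2 and P-RPC, 2 of the 6 were called, Ddc and Th, both higher, beside 23.7% of all genes (10.7% higher and 13.0% lower). Between rESC-RPC1 and P-RPC, 3 of the 6 were called, Maob, Ddc and Gch1, all higher, beside 21.5% of all genes (12.0% higher and 9.56% lower). The arrays of the 2 groups did not overlap for 5 of the 6 genes when rESC-RPC2 was set against rESC-RPC1 (1 higher and 4 lower, beside 24.2% and 29.6% of all genes), for 3 between rESC-RPC2 and P-RPC (2 higher and 1 lower, beside 35.2% and 37.7%) and for 4 between rESC-RPC1 and P-RPC (all higher, beside 32.7%). Since the genes were picked for such differences, nothing is read from these counts. The median log2 fold change over the 6 genes was -0.82 for rESC-RPC2 against rESC-RPC1, -0.02 for rESC-RPC2 against P-RPC and 0.99 for rESC-RPC1 against P-RPC, and over all genes tested it was -0.03, -0.02 and -0.01. The last 2 comparisons share the P-RPC arrays.

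**Figure D2:**
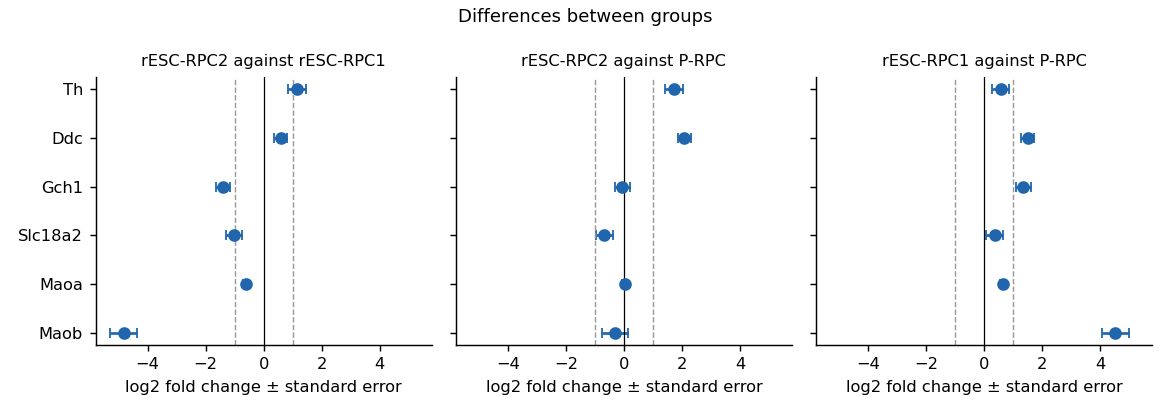
Log2 fold change of the 6 genes (points) with its moderated standard error (bars) in each of the 3 comparisons; the dashed lines mark a 2-fold difference. Maob lies at -4.83 for rESC-RPC2 against rESC-RPC1 and at 4.52 for rESC-RPC1 against P-RPC, while every other gene stays between -1.41 and 2.08.

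Tyrosine hydroxylase adds the hydroxyl group that turns tyrosine into L-DOPA and is the rate-limiting enzyme of catecholamine synthesis. Th (gene ID 25085, 1 probe set, 1387075_at) lies on chromosome 1 of the rat build GRCr8, at chr1:207500959-207508276 on the minus strand. Its signal was 249.7, 372 and 183 on the rESC-RPC2 arrays, 121, 84.0 and 151 on the rESC-RPC1 arrays, and 68.6, 98.9 and 70.7 on the P-RPC arrays. All 3 rESC-RPC2 arrays were above every other array, and in rESC-RPC1 and P-RPC only rESC-RPC1 replicate 3 reached the threshold. The means were 268 ± 95.7 in rESC-RPC2, 119 ± 33.7 in rESC-RPC1 and 79.4 ± 16.9 in P-RPC (SD, n = 3 each). The log2 fold change was 1.16 ± 0.31 (moderated SE), or 2.23-fold, for rESC-RPC2 against rESC-RPC1. For rESC-RPC2 against P-RPC, where every P-RPC array was under the threshold, Th was at least 2.10-fold higher. rESC-RPC1 and P-RPC overlapped, at a log2 fold change of 0.56 ± 0.31. The smaller of the called differences, that between the rESC-RPCs, was under 2-fold without rESC-RPC2 replicate 2 (0.89) and without rESC-RPC1 replicate 2 (0.93).

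Th is shown with the stretch before its start because it holds the motif TGACGTCA, the palindromic cAMP response element, which only 1.6% of the 33469 rat promoter windows of 250 bases hold. The stretch runs from 150 to 31 bases before the annotated transcript start, which lies inside the span of the gene given above (RefSeq, build GRCr8, the BN reference genome and not the DA or SD cells of the study), and capitals mark the motif.
Th, chr1:207508249-207508368, minus strand: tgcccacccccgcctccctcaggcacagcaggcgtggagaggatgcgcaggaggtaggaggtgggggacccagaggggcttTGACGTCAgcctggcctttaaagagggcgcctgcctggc
The first base of the motif lies 69 bases before the annotated start. Its match is a description of the letters and was not related to any measured binding.

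GTP cyclohydrolase 1 opens the pathway to tetrahydrobiopterin and limits its rate. Gch1 (gene ID 29244, chr15:22884006-22917412, minus strand) had 2 probe sets. With 1387221_at, the one of higher mean, the signal was 68.8, 51.0 and 47.2 in rESC-RPC2, 141, 145 and 150.4 in rESC-RPC1, and 59.9, 52.1 and 59.7 in P-RPC. The 3 rESC-RPC1 arrays lay close together and above all others, and they alone reached the threshold, so that the gene entered the fit only through the group in which it was high and dropped out without any 1 of these arrays. The means were 55.7 ± 11.5 in rESC-RPC2, 146 ± 4.52 in rESC-RPC1 and 57.2 ± 4.47 in P-RPC. Since the signal in rESC-RPC1 was itself barely above the threshold, the difference of Gch1 is bounded only as 1.19-fold or more, in the lower direction for rESC-RPC2 against rESC-RPC1 and in the higher direction for rESC-RPC1 against P-RPC. The fitted log2 fold changes were -1.41 ± 0.25 and 1.35 ± 0.25. For rESC-RPC2 against P-RPC, both wholly under the threshold, no fold is given.

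The second Gch1 probe set, 1368503_at, was under the threshold on all 9 arrays and ran the other way, with signals of 14.9, 11.5 and 24.4 in rESC-RPC2, 6.56, 3.71 and 10.1 in rESC-RPC1, and 31.9, 23.1 and 34.9 in P-RPC. On this probe set rESC-RPC1 held the 3 lowest arrays. The direction for Gch1 therefore rests on 1 of its 2 probe sets.

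**Figure D3:**
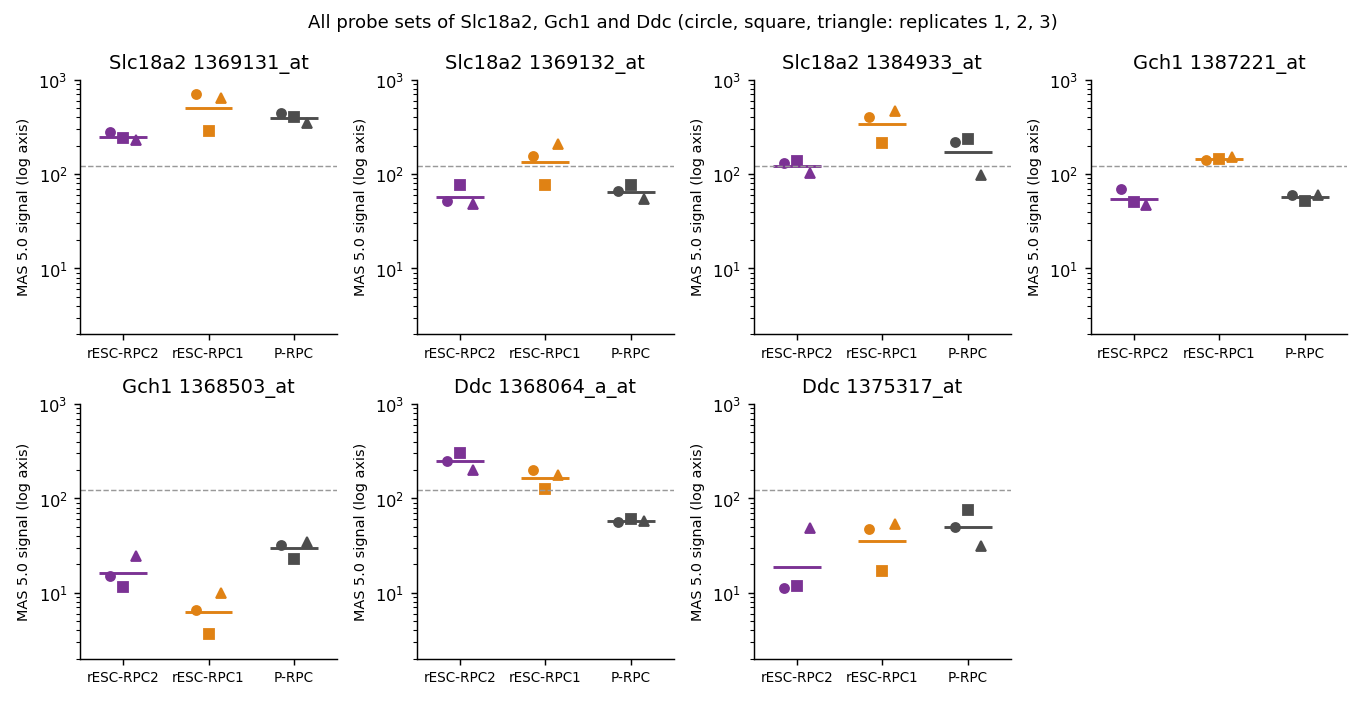
MAS 5.0 signal (log axis) on each array for every probe set of the 3 genes that have more than 1, Slc18a2, Gch1 and Ddc. Each marker is 1 array, the short line is the mean of the 3 log2 signals and the dashed line is the detection threshold of 122.57; the second probe sets of Gch1 and Ddc stay under it on all 9 arrays.

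Aromatic L-amino acid decarboxylase makes dopamine from L-DOPA and serotonin from 5-hydroxytryptophan. Ddc (gene ID 24311, chr14:90592304-90682830, minus strand) had 2 probe sets. On 1368064_a_at, whose suffix marks probes shared by several transcripts of the same gene, the signal was 251, 302 and 198 in rESC-RPC2, 201, 125 and 177 in rESC-RPC1, and 56.8, 60.5 and 57.2 in P-RPC. All 6 rESC-RPC arrays were above the threshold and all 3 P-RPC arrays below it. The means were 250.4 ± 52.1 in rESC-RPC2, 168 ± 38.9 in rESC-RPC1 and 58.2 ± 2.03 in P-RPC. Against P-RPC, Ddc was at least 2.01-fold higher for rESC-RPC2 and at least 1.34-fold higher for rESC-RPC1, with fitted log2 fold changes of 2.08 ± 0.23 and 1.50 ± 0.23. The rESC-RPCs differed by 0.59 ± 0.23 and overlapped, since rESC-RPC1 replicate 1 was above rESC-RPC2 replicate 3. The second probe set, 1375317_at, was under the threshold on all 9 arrays, between 11.2 and 76.4, with the groups overlapping in each comparison.

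Over the 9 arrays the log2 signals of Th and Ddc had a Pearson r of 0.88, a description over 9 points that fall into 3 groups. The summed signal of 5 neuron markers (Tubb3, Map2, Stmn2, Snap25 and Syt1) was likewise highest in rESC-RPC2, from 33141 to 36464, against 12888 to 19519.8 in rESC-RPC1 and 15914 to 18361 in P-RPC. All 5 neuron markers were detected on every rESC-RPC2 array, and 4 of 5 on every rESC-RPC1 and every P-RPC array. Tubb3, which encodes the neuronal class of beta tubulin, was higher in rESC-RPC2 than in rESC-RPC1 by 1.45 ± 0.15 on the log2 scale (limma, adjusted p = 4.03e-05) and higher than in P-RPC by 1.08 ± 0.15 (adjusted p = 0.000143). The part of neuron number in the Th and Ddc signals was not tested.

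VMAT2, encoded by Slc18a2, carries monoamines from the cytosol into vesicles. The gene (gene ID 25549, chr1:268399815-268435229, plus strand) had 3 probe sets. On 1369131_at the signal was 280, 239 and 228 in rESC-RPC2, 706, 286 and 642 in rESC-RPC1, and 441, 406 and 346 in P-RPC. Every array was above the threshold, the 3 rESC-RPC2 arrays were the lowest, and rESC-RPC1 replicate 2 stood well below the other two of its group, next to rESC-RPC2. The means were 249 ± 27.4 in rESC-RPC2, 545 ± 226 in rESC-RPC1 and 397 ± 47.8 in P-RPC. The log2 fold change was -1.03 ± 0.29, or 2.04-fold lower, for rESC-RPC2 against rESC-RPC1. It was -0.67 ± 0.29 for rESC-RPC2 against P-RPC, where the arrays did not overlap, and 0.36 ± 0.29 for rESC-RPC1 against P-RPC, where they did. The difference between the rESC-RPCs lay just past 2-fold and was under it, at -0.79, without rESC-RPC1 replicate 1, at -0.86 without rESC-RPC1 replicate 3 and at -0.97 without rESC-RPC2 replicate 3.

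The other Slc18a2 probe sets also had a lower mean in rESC-RPC2 than in rESC-RPC1, 1 of them with overlapping arrays. On 1384933_at the signal was 130, 137 and 103 in rESC-RPC2, 399, 214 and 467 in rESC-RPC1, and 220, 236 and 96.8 in P-RPC. The log2 fold change for rESC-RPC2 against rESC-RPC1 was -1.48 ± 0.36, without overlap, while rESC-RPC2 and P-RPC overlapped (-0.49 ± 0.36). On 1369132_at, which reached the threshold on 2 arrays, it was 51.8, 77.0 and 48.7 in rESC-RPC2, 156, 76.5 and 208 in rESC-RPC1, and 65.6, 77.5 and 54.1 in P-RPC. There the arrays overlapped in every comparison, and rESC-RPC2, wholly under the threshold, was at least 1.11-fold lower than rESC-RPC1. On each of the 3 probe sets rESC-RPC1 replicate 2 was the lowest array of its group. Slc18a2 is shown here because the stretch before the transcript start used holds the same rare motif as that of Th. The first base of the motif, in capitals, lies 52 bases before that start.
Slc18a2, chr1:268399871-268399990, plus strand: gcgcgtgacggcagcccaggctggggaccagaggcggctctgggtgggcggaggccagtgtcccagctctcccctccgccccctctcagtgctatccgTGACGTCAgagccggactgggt
The annotated transcript start used for this stretch lies inside the span of the gene given above, and so does the whole printed stretch. The motif of Slc18a2 thus lies within the annotated gene and not upstream of it. Th was higher and Slc18a2 lower in rESC-RPC2 than in rESC-RPC1. Their Pearson r over the 9 arrays was -0.40, a description over 9 points that fall into 3 groups. Whether the motif bears on either signal was not tested.

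The monoamine oxidases are encoded next to each other on the X chromosome, and isoform A prefers serotonin and noradrenaline while isoform B prefers phenylethylamine. Maoa (gene ID 29253, chrX:8615239-8681372, minus strand) had 1 probe set, 1370678_s_at. Its signal was 1336, 1326 and 1184 in rESC-RPC2, 2050.4, 2046 and 1777 in rESC-RPC1, and 1235, 1267 and 1276 in P-RPC. The 3 rESC-RPC1 arrays were the highest, and rESC-RPC2 and P-RPC overlapped. The means were 1282 ± 85.2 in rESC-RPC2, 1958 ± 156 in rESC-RPC1 and 1259 ± 21.7 in P-RPC. Maoa was 1.53-fold lower in rESC-RPC2 than in rESC-RPC1 (log2 fold change -0.61 ± 0.09) and 1.55-fold higher for rESC-RPC1 against P-RPC (0.63 ± 0.09). Both differences were without overlap and under 2-fold, and rESC-RPC2 differed from P-RPC by 0.02 ± 0.09. The suffix of this probe set marks, in the manufacturer's naming, probes that match transcripts of more than 1 gene, and how much Maob transcript adds to the Maoa signal was not tested.

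Maob (gene ID 25750, chrX:8490405-8594065, plus strand, 1 probe set, 1368514_at) had signals of 60.4, 149.5 and 87.5 in rESC-RPC2, 3038, 4907 and 1208 in rESC-RPC1, and 132, 121 and 93.2 in P-RPC. The lowest rESC-RPC1 array was far above the highest of the other 6, of which only rESC-RPC2 replicate 2 and P-RPC replicate 1 reached the threshold. The means were 99.2 ± 45.7 in rESC-RPC2, 3051 ± 1850 in rESC-RPC1 and 116 ± 20.1 in P-RPC. Maob was 28.3-fold lower in rESC-RPC2 than in rESC-RPC1. The log2 fold change was -4.83 ± 0.46, the sixth lowest of the 9956 genes. Against P-RPC, rESC-RPC1 was 22.9-fold higher (4.52 ± 0.46), rank 64 of the 9956 from the top. rESC-RPC2 and P-RPC overlapped, at -0.31 ± 0.46. The folds of the 2 large differences depend on the dim groups, whose arrays lie about the threshold. Both stayed past 2-fold whichever array was left out, with -5.38 and 5.08 without rESC-RPC1 replicate 3 and -4.37 and 4.07 without rESC-RPC1 replicate 2.

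Maob and Gch1, both highest in rESC-RPC1, are shown with the same stretch before their starts, from 150 to 31 bases upstream, because each holds the motif GGGCGG (GC box, searched on both strands). That motif is common, and 30.5% of the 33469 windows hold it. Capitals mark it in both, and in Gch1 the 2 copies overlap.
Maob, chrX:8490255-8490374, plus strand: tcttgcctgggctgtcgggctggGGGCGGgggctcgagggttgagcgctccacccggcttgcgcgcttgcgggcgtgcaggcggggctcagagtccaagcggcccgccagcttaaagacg
Gch1, chr15:22917443-22917562, minus strand: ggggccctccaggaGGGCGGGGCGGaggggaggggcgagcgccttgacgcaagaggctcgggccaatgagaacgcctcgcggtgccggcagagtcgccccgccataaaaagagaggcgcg
The whole 250-base window held 2 GC boxes for Maob, 2 for Gch1, 2 for Slc18a2, 4 for Maoa and none for Th. Neither GGGCGG nor TGACGTCA was found in the windows of the 3 annotated Ddc starts.

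Maob varied 4.06-fold between the 3 rESC-RPC1 arrays, from replicate 3 at the low end to replicate 2 at the high end. On the log2 scale the deviations from the rESC-RPC1 mean were 0.21, 0.90 and -1.12 for replicates 1, 2 and 3. Among the markers, Dct, an enzyme of melanin synthesis, deviated by 0.42, 0.87 and -1.29, and Aqp4, the water channel of astrocytes, by -0.27, 1.26 and -0.99. S100b, Gja1, Slc1a3, Pmel, Tubb3, Map2, Stmn2 and Snap25 also had replicate 2 highest and replicate 3 lowest. The mesenchyme and smooth muscle genes Acta2, Tagln, Col1a1 and Col1a2 had the opposite order, highest in replicate 3 and lowest in replicate 2, and Col3a1 was highest in replicate 1. Slc18a2 (0.48, -0.82 and 0.34) and Ddc (0.29, -0.39 and 0.10) were lowest in replicate 2. Gch1 stayed within 0.05 of its mean and Gfap within 0.09. These are 3 arrays, and no test was made of the order.

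**Figure D4:**
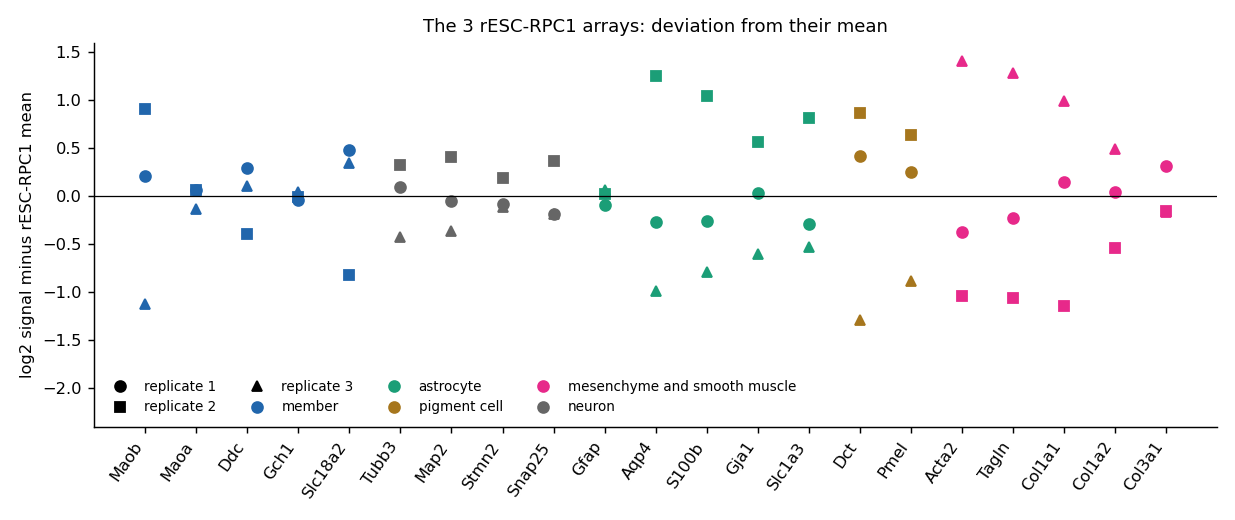
Deviation of the log2 signal from the mean of the 3 rESC-RPC1 arrays (vertical axis) for the monoamine genes and for marker genes at or above the threshold in that group, 1 marker shape per replicate and 1 colour per gene group. Maob, the pigment cell genes, the neuron genes and 4 of the 5 astrocyte genes lie highest in replicate 2 and lowest in replicate 3. Of the 5 mesenchyme genes, 4 lie the other way round.

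Across the groups, part of the astrocyte markers had their highest mean in rESC-RPC1, as Maob did. Of the pigment cell markers that reached the threshold, only Dct did. The summed signal of 7 astrocyte markers ran from 7104 to 8959 in rESC-RPC2, from 15999 to 32303 in rESC-RPC1 and from 12839 to 14492 in P-RPC. Gja1 and Slc1a3 were the only ones detected in P-RPC and held nearly all of its sum. Gja1 averaged 3892 in rESC-RPC2, 14857.5 in rESC-RPC1 and 8536 in P-RPC. Slc1a3, unlike Maob, had its highest mean in P-RPC, with 2923, 3844 and 4843 in the same order. Of the 7, 3 were detected on every rESC-RPC2 array, 5 on every rESC-RPC1 array and 2 on every P-RPC array, while Aldh1l1 and Slc1a2 were under the threshold on all 9 arrays. Gfap, the intermediate filament of astrocytes and reactive glia, gave 616, 1471 and 849.8 in rESC-RPC2, 3472, 3748 and 3847 in rESC-RPC1, and 69.9, 49.1 and 58.4 in P-RPC. It was thus lower in rESC-RPC2 than in rESC-RPC1 by a log2 fold change of -2.01 ± 0.26 (limma, adjusted p = 0.00015) but at least 7.48-fold higher in rESC-RPC2 than P-RPC, whereas the Maob signals of rESC-RPC2 and P-RPC overlapped. S100b, a calcium-binding protein of glia, was under the threshold on all rESC-RPC2 and P-RPC arrays and above it on all rESC-RPC1 arrays, and for rESC-RPC2 against rESC-RPC1 it was lower by at least 2.97-fold. It entered the fit only through rESC-RPC1, the group in which it was high, so no p is given.

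The summed signal of 6 pigment cell markers ran from 167 to 228 in rESC-RPC2, from 1278 to 5359 in rESC-RPC1 and from 4440.4 to 5035 in P-RPC. None of the 6 was detected on every rESC-RPC2 array, 2 were on every rESC-RPC1 array and 4 on every P-RPC array, with Rpe65, which defines the pigment epithelium, under the threshold on all arrays. Dct gave 109.9, 125 and 92.1 in rESC-RPC2, 3389, 4630.5 and 1033 in rESC-RPC1, and 865, 984 and 1160.0 in P-RPC. Tyr, Tyrp1, Pmel and Mlana, unlike Maob, had their highest means in P-RPC (237, 1225, 2064 and 130). Their rESC-RPC1 means were 16.3, 64.5, 339 and 23.0. The mesenchyme and smooth muscle markers, 5 of 5 detected on every rESC-RPC array, summed to between 9124 and 16581 in rESC-RPC2, 17391 and 42767 in rESC-RPC1, and 540.4 and 586 in P-RPC. Markers of mast cells, which also load vesicles through VMAT2, and of neural crest and Schwann cells were under the threshold on all 9 arrays. The part of these cell types in the Maob, Maoa and Gch1 signals was not tested.

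On the chromosome Maob and Maoa point toward each other, with 21173 bases between their ends. Over the 9 arrays their log2 signals had a Pearson r of 0.97, and Gch1 had an r of 0.92 with Maob and 0.96 with Maoa, as a description of 3 groups that differ. The nearest gene with a probe set on the far side of Maob is Ndp (norrin, a secreted ligand needed for retinal blood vessels; chrX:8379569-8404019, plus strand). Ndp gave 57.3, 80.3 and 53.2 in rESC-RPC2, 447, 328 and 423 in rESC-RPC1, and 670.3, 615 and 667 in P-RPC. All 3 rESC-RPC2 arrays were under the threshold. Ndp was lower in rESC-RPC2 by at least 3.23-fold against rESC-RPC1 (adjusted p = 3.46e-06) and by at least 5.30-fold against P-RPC (adjusted p = 2.01e-07). Between rESC-RPC1 and P-RPC the fold change was -0.72 ± 0.18, short of 2-fold and opposite in sign to that of Maob. The second Ndp probe set and the next gene, Efhc2, were under the threshold on all arrays.

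The genes whose log2 signals most resembled those of each member were listed by Pearson r over the same 9 arrays, with no p, since any gene that differs between the groups in the same way scores high. For Maob these were Aamdc (0.995), Hsd17b4 (0.990), an enzyme of peroxisomal beta-oxidation, and Csad (0.986), an enzyme of taurine synthesis. Aamdc averaged 456 in rESC-RPC2, 2695 in rESC-RPC1 and 442 in P-RPC. For Gch1 they were Bhlhe40 (0.993), a transcription factor that averaged 25.0 in rESC-RPC2, 256 in rESC-RPC1 and 25.6 in P-RPC, Poglut3 (0.989) and Wnk1 (0.986). For Maoa they were Tmem132c (0.992), Tctn1 (0.991), a protein of the ciliary transition zone, and Stom (0.991). Ddc was most like Morf4l2 (0.989), B4galt3 (0.985) and Nipsnap1 (0.981), Th most like Clec16a (0.955), Mief1 (0.951) and Syt5 (0.949), a synaptotagmin, and Slc18a2 most like Dock6 (0.980), Cr1l (0.975) and Angpt2 (0.968), a vessel growth factor. The likeness of the leading genes was weakest for Th.

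The other genes of the pathway were taken as 6 lists with 75 genes, of which 63 had a probe set and 16 were tested. For rESC-RPC2 against rESC-RPC1, 1 of the 16 was called higher and 3 lower (25%, beside 14.3% of all genes), with a median log2 fold change of -0.45. For rESC-RPC2 against P-RPC, 2 were called higher and 5 lower (43.8%, beside 23.7%), with a median of -0.13. For rESC-RPC1 against P-RPC, 3 were called higher and 2 lower (31.2%, beside 21.5%), with a median of 0.32. The counts include Drd1 (called in all 3 comparisons) and Htr7 (called in both comparisons with P-RPC), which entered the fit only through the group in which they were high. The counts also include Htr2c (called for rESC-RPC2 against P-RPC) and Sult1a1 (called in both comparisons with rESC-RPC1). Neither would have been tested without the group in which it was high. Nothing particular to the lists is read from these small counts.

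Most genes that define monoamine neurons were not detected. None of the 5 further synthesis genes with a probe set (Dbh, Pnmt, Hdc, Aanat and Asmt) and none of the 6 transporters reached the threshold on 3 arrays. Slc6a3, the plasma membrane dopamine transporter, gave 38.3, 128 and 37.1 in rESC-RPC2, 66.4, 39.2 and 49.5 in rESC-RPC1, and 76.5, 78.8 and 60.7 in P-RPC, so it reached the threshold on rESC-RPC2 replicate 2 alone. Of 9 transcription factors of dopaminergic, serotonergic and noradrenergic neurons with a probe set, only Nr4a2, a nuclear receptor of dopaminergic neurons that many other cells express too, was tested. Nr4a2 averaged 282 ± 18.4 in rESC-RPC2, 200.1 ± 7.10 in rESC-RPC1 and 224 ± 27.3 in P-RPC and was not called. Pitx3, Foxa1, Foxa2, En2 and Fev were under the threshold on all 9 arrays. A low signal on this array shows that a transcript was not detected, not that it was absent.

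Of the cofactor genes, all 4 with a probe set were tested. Qdpr, which regenerates tetrahydrobiopterin, averaged 743 ± 40.3 in rESC-RPC2, 965 ± 90.7 in rESC-RPC1 and 1757 ± 151 in P-RPC. It was lower in rESC-RPC2 than in P-RPC (log2 fold change -1.24 ± 0.10, adjusted p = 3.45e-06), and the difference of rESC-RPC1 from P-RPC, -0.86 ± 0.10, was short of 2-fold (adjusted p = 4.84e-05). Pts, which makes the next intermediate after Gch1, Pcbd2 and Gchfr, the feedback regulator of GTP cyclohydrolase, were called in no comparison. Pcbd2 differed without overlap in both comparisons in which Gch1 was called, but by less than 2-fold. Its log2 fold change was -0.68 ± 0.15 for rESC-RPC2 against rESC-RPC1 (limma, adjusted p = 0.00311). For rESC-RPC1 against P-RPC it was 0.38 ± 0.15 (adjusted p = 0.0439). Qdpr was also lower in rESC-RPC2 than in rESC-RPC1 without overlap, at -0.37 ± 0.10 (adjusted p = 0.0126). Pts and Gchfr overlapped in both comparisons.

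**Figure D5:**
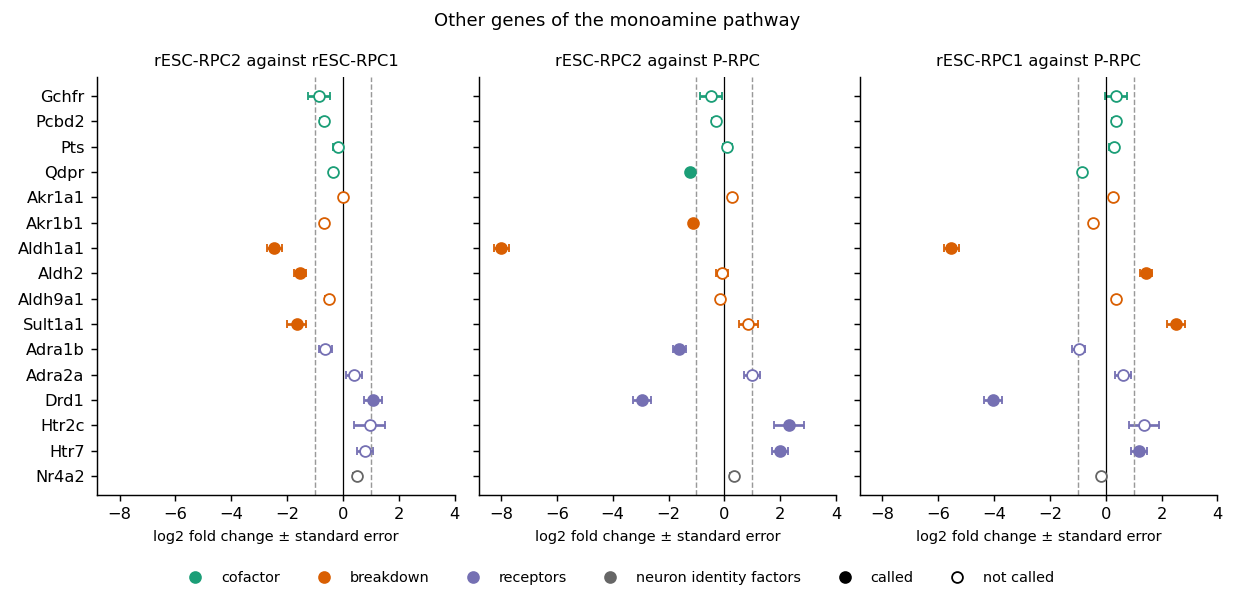
Log2 fold change (points) and moderated standard error (bars) of the 16 other pathway genes tested, coloured by list, in the 3 comparisons; filled points were called and the dashed lines mark a 2-fold difference. The lowest point is Aldh1a1 at -7.99 for rESC-RPC2 against P-RPC, and 4, 7 and 5 of the 16 genes are filled from left to right.

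Of the breakdown genes, 6 of the 7 with a probe set were tested. Aldh1a1, which oxidises retinaldehyde and also the aldehyde that monoamine oxidase makes from dopamine, gave 46.1, 21.3 and 35.0 in rESC-RPC2, 194, 134 and 222 in rESC-RPC1, and 7586, 7892 and 9443 in P-RPC. For rESC-RPC2 against P-RPC it was lower by at least 67.5-fold (fitted log2 fold change -7.99 ± 0.27, adjusted p = 1.22e-08). In rESC-RPC1 it was lower than in P-RPC by a log2 fold change of -5.53 ± 0.27 (adjusted p = 1.14e-07), and in rESC-RPC2 at least 1.46-fold lower than in rESC-RPC1 (adjusted p = 4.99e-05). The order of the groups for this gene was thus unlike that for Maob, with P-RPC far above both rESC-RPCs.

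Aldh2, the mitochondrial aldehyde dehydrogenase, had its highest signals in rESC-RPC1, as Maob did. It gave 235, 191 and 160.5 in rESC-RPC2, 494, 783 and 447 in rESC-RPC1, and 202, 215 and 202 in P-RPC, with all 3 rESC-RPC1 arrays above the other 6. It was lower in rESC-RPC2 than in rESC-RPC1 (log2 fold change -1.53 ± 0.21, adjusted p = 0.000235) and higher for rESC-RPC1 against P-RPC (1.43 ± 0.21, adjusted p = 0.000218), while rESC-RPC2 and P-RPC overlapped (-0.10 ± 0.21, adjusted p = 0.714). Sult1a1, a sulfotransferase of phenols and catechols, gave 108, 147 and 165 in rESC-RPC2, 344, 792 and 306 in rESC-RPC1, and 89.2, 73.8 and 67.3 in P-RPC. Sult1a1 reached the threshold on all 3 rESC-RPC1 arrays and on 2 rESC-RPC2 arrays. It would not have been tested without rESC-RPC1, the group in which it was high, so no p is given for its differences from that group. It was lower in rESC-RPC2 than in rESC-RPC1 (log2 fold change -1.66 ± 0.33) and at least 3.56-fold higher for rESC-RPC1 against P-RPC. For rESC-RPC2 against P-RPC, where every P-RPC array was under the threshold, it was at least 1.12-fold higher and not called (0.85 ± 0.33, adjusted p = 0.0432) but was called without rESC-RPC2 replicate 1 (1.03). In both genes rESC-RPC1 replicate 2 was the highest array of its group, as it was for Maob.

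Akr1b1, aldose reductase, was lower in rESC-RPC2 than in P-RPC (2543 ± 328 against 5484 ± 406, log2 fold change -1.11 ± 0.11, adjusted p = 9.63e-06). It differed by less than 2-fold in the other 2 comparisons. Akr1a1 and Aldh9a1 were called in none.

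Of 32 monoamine receptors with a probe set, 5 were tested. Drd1, a dopamine receptor that stimulates adenylyl cyclase, gave 60.0, 74.5 and 91.5 in rESC-RPC2, 21.7, 37.3 and 54.8 in rESC-RPC1, and 537, 594 and 598 in P-RPC. Against P-RPC it was at least 4.69-fold lower in both rESC-RPC2 and rESC-RPC1. Drd1 entered the fit only through P-RPC, the group in which it was high, and dropped out without any 1 P-RPC array, so no p is given. The rESC-RPC2 arrays were called higher than the rESC-RPC1 arrays, but all 6 were under the threshold, so no fold is given, and the call was lost without rESC-RPC2 replicate 3 or rESC-RPC1 replicate 1 (fitted log2 fold change 0.92 and 0.71). Adra1b, an alpha-1 adrenergic receptor named after its values were seen, was lower by at least 2.28-fold for rESC-RPC2 against P-RPC (adjusted p = 0.000137). It was not called for rESC-RPC1 against P-RPC (-0.98 ± 0.23, adjusted p = 0.00386) but was called without P-RPC replicate 2 (-1.09).

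Of the serotonin receptors, only Htr2c and Htr7 were tested, and both had their lowest signals in P-RPC. Htr2c gave 184, 229 and 203 in rESC-RPC2, 53.6, 323 and 68.1 in rESC-RPC1, and 37.6, 42.5 and 43.3 in P-RPC. Htr2c reached the threshold on all 3 rESC-RPC2 arrays and, of the others, on rESC-RPC1 replicate 2 alone. It would not have been tested without rESC-RPC2, the group in which it was high. For rESC-RPC2 against P-RPC it was at least 1.67-fold higher, and no p is given for this difference. rESC-RPC1, with replicate 2 far above the other 2, was not called against P-RPC (log2 fold change 1.36 ± 0.55, adjusted p = 0.051) but was called without its replicate 1 (1.85) or replicate 3 (1.68). For rESC-RPC2 against rESC-RPC1, Htr2c was not called (0.95 ± 0.55, adjusted p = 0.174) but was called without rESC-RPC1 replicate 2 (1.76). Htr7 gave 130, 157 and 170.3 in rESC-RPC2, 66.7, 101 and 99.9 in rESC-RPC1, and 49.2, 32.5 and 34.7 in P-RPC. Against P-RPC, rESC-RPC2 was at least 1.24-fold higher. Htr7 entered the fit only through rESC-RPC2, the group in which it was high, and dropped out without any 1 of its arrays, so no p is given. Its call for rESC-RPC1 against P-RPC lies wholly under the threshold. Adra2a, an alpha-2 adrenergic receptor also named after its values were seen, was just short of 2-fold for rESC-RPC2 against P-RPC (0.99 ± 0.28, adjusted p = 0.0106) and was called without rESC-RPC2 replicate 3 (1.01) or P-RPC replicate 1 (1.19).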

How the data were processed

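RNA of 9 samples, 3 per group, was hybridised to the Affymetrix Rat Genome 230 2.0 array. The authors removed the background and normalised each array with the MAS 5.0 algorithm in GeneSpring 11.0, and the deposited values are linear signal intensities, not log2 values (MAS5 is named in the submitters' processing notes, without a version). Of 31099 deposited probe sets, 57 control probe sets were left out. In the platform annotation 20826 had 1 gene symbol, 436 several and 9780 none, and only the first kind was used.

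From the deposited intensities, signals under 1 (122 to 196 values per array) were raised to 1 and log2 values were taken. For a gene with several probe sets, the brightest on average was used. Groups were compared with limma 3.58.1 in R 4.3.3 (1 mean per group, trended prior variance, two-sided, Benjamini-Hochberg), after a test on simulated data. The number of arrays limits the precision. In the main fit, replicate numbers were used only as names. Same-numbered arrays deviated together, at r over 0.1, in 1 of 9 pairs, replicate 2 of rESC-RPC2 and rESC-RPC1 (r = 0.27). Whether these 2 arrays shared a batch was not tested. Probe sets show single stretches of a transcript, MAS 5.0 scaling assumes a like total signal in every group, and dim signals include cross-hybridisation. Promoter stretches and coordinates are from RefSeq, build GRCr8.

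The members and lists were chosen with earlier results of these data known. Named were every member, the 3 genes most like each, the chromosomal neighbours of Maoa and Maob, and up to 3 called pathway genes per list and comparison with the largest fold changes and no overlap between arrays. Alternatives tried were quantile normalisation, median centring, other filters, floors and pseudocounts, the median probe set, no variance trend, the methods' t-test, a replicate block and leaving out each array.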

Additional observations from a re-analysis of the deposited data

How the results depend on the processing

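The methods' t-test was used for counts of called genes only, and calls of single genes were not read from it. Under every other setting tried, Maob was called for rESC-RPC2 against rESC-RPC1 (log2 fold change -5.38 to -4.32) and for rESC-RPC1 against P-RPC (4.07 to 5.08). Ddc and Th were called for rESC-RPC2 against P-RPC under each of these settings in which they could be tested (not with the stricter filter). Maob, Ddc and Th were picked from these same arrays. Their calls thus describe how the settings act and are no test of these genes. Genes called numbered 745, 1372 and 1235 with the stricter filter (3 arrays at or above the 75th percentile), in the order rESC-RPC2 against rESC-RPC1, rESC-RPC2 against P-RPC and rESC-RPC1 against P-RPC, since fewer genes were tested, and 1224 to 1454, 2100 to 2339 and 1859 to 2164 when 1 array was left out. Pathway genes called numbered 7, 14 and 12 with no filter, 1, 3 and 1 with the stricter filter, and 3 to 5, 6 to 7 and 4 to 6 with 1 array left out. For rESC-RPC2 against rESC-RPC1 they numbered 2 with the floor at the detection threshold, where Aldh1a1 and Drd1 lost their calls by construction. With the methods' t-test after Benjamini-Hochberg they also numbered 2, and the cause of that was not tested. With each array centred on its median, 1180 genes were called higher and 1169 lower for rESC-RPC2 against P-RPC, beside 1069 and 1292.

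Small uncalled differences between rESC-RPC2 and P-RPC changed sign. Gch1 became 0.023 (quantile normalisation) and 0.025 (median centring) and ran from -0.22 to 0.052 with 1 array left out. Maob became 0.060 with the floor at the threshold and ran from -0.65 to 0.00083 with 1 array left out, Maoa from -0.0072 to 0.080 and Aldh2 from -0.24 to 0.038. Slc18a2 for rESC-RPC2 against rESC-RPC1 was short of 2-fold with quantile normalisation (-0.98), median centring (-0.97) and log2(signal + 32) (-0.95), and Th with the floor at the threshold (0.97) and log2(signal + 32) (0.97). At that floor Gch1 (-0.25 for rESC-RPC2 against rESC-RPC1, 0.25 for rESC-RPC1 against P-RPC) and Ddc (0.42 for rESC-RPC1 against P-RPC) lost their calls by construction, as did Aldh1a1 and Drd1 for rESC-RPC2 against rESC-RPC1 (-0.55 and 0), Htr2c and Htr7 for rESC-RPC2 against P-RPC (0.74 and 0.31) and Htr7 for rESC-RPC1 against P-RPC (0). With log2(signal + 32), Gch1 (0.99) and Htr7 (0.77) for rESC-RPC1 against P-RPC and Drd1 for rESC-RPC2 against rESC-RPC1 (0.64) also lost theirs. Gch1 could not be tested with the stricter filter or without any 1 rESC-RPC1 array. Same-numbered arrays correlated at -0.041 to 0.27, over 0.1 in 1 of 9 pairs. Adding a replicate block to the fit gave calls for 1426, 2363 and 2148 genes and 4, 7 and 6 pathway genes. Htr2c was called for rESC-RPC1 against P-RPC with that block (1.36), quantile normalisation (1.41), median centring (1.39) and a floor of 16 (1.36), and Adra2a for rESC-RPC2 against P-RPC with quantile normalisation (1.07) and median centring (1.07).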
